A study of Mus musculus with 15 samples.

Results

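The enzymes that build NAD were followed across the kidneys of mice that carry the renal carcinoma fusion PRCC-TFE3. Members were the genes Nmrk1, Nmrk2, Nampt, Nadsyn1, Nmnat1, Nmnat2, Nmnat3, Qprt and Cd38. Each was taken from the array entry annotated with that symbol alone, and from the entry of highest mean over all arrays where there were several. Of the 9 genes listed, 8 were measured in this way, each by 1 entry, among 22180 genes in all. Cd38, an enzyme that breaks NAD down, had no entry under its own symbol alone and was not analysed here.

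All 15 mice carried the PRCC-TFE3 fusion as a knock-in at Rosa26, silenced by a lox-stop-lox (LSL) cassette until Cre removes it. The groups were 4-month PRCC-TFE3;KSP-Cre- (n = 4), 4-month PRCC-TFE3;KSP-Cre+ (n = 4), 7-month PRCC-TFE3;KSP-Cre- (n = 3) and 7-month PRCC-TFE3;KSP-Cre+ (n = 4), called Cre- and Cre+ here. KSP-Cre uses the promoter of Cdh16 (Ksp-cadherin), which directs Cre to tubule epithelium. Mice with KSP-Cre but without the PRCC-TFE3 allele were not among the groups, so what the fusion does and what Cre itself does cannot be told apart. By Xist and Y-linked genes each group held both male and female mice, and sex was not a term of the main model. RNA of the whole kidney of each mouse was hybridised to a Mouse Gene 2.0 ST array. Values are log2 values after RMA, an array normalization, and are compared between arrays for a given gene, never between genes.

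NAD is the electron carrier of oxidative metabolism and is also used up by sirtuins and by ADP-ribosyl transferases (PARPs), so cells remake it all the time. The salvage route returns nicotinamide to nicotinamide mononucleotide through Nampt, or enters at nicotinamide riboside, which the kinases Nmrk1 and Nmrk2 phosphorylate. The de novo route from tryptophan and the Preiss-Handler route from nicotinic acid meet at nicotinic acid mononucleotide, the Nmnat enzymes turn either mononucleotide into a dinucleotide, and Nadsyn1 amidates the nicotinic acid form to NAD. Kidney proximal tubule is a site of de novo synthesis, whereas Nmrk2 is known mainly as the riboside kinase of skeletal and heart muscle.

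Stretches upstream of the start sites are shown for both riboside kinases, which moved in opposite directions, and for Qprt, which fell as Nmrk1 did and has few CG dinucleotides there. They come from RefSeq on build GRCm38.p6, run 5′ to 3′ on the gene's strand and end at the base before the start site, except for Nmrk2. Capitals mark CG dinucleotides in Nmrk1 (chr19:18631816-18632015, plus strand) and Qprt (chr7:127122030-127122229, minus strand). For Nmrk2 (chr10:81202066-81202095, minus strand) 30 bases are shown, with TATAAA in capitals, and they lie inside the annotated span of the gene, which runs to 81202265.
Nmrk1: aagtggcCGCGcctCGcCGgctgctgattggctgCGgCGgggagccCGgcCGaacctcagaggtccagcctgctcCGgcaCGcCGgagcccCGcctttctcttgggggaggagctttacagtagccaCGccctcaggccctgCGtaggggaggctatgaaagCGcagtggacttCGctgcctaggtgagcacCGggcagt
Qprt: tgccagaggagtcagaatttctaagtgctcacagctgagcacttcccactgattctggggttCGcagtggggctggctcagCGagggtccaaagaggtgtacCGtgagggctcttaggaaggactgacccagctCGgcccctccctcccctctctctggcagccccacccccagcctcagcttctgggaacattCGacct
Nmrk2: gctgcccaaaccTATAAAtgccccacagct

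The RefSeq table held windows for all 8 measured members, 9 windows in all because Nmnat1 has 2. Those of Nmnat2 and Nmnat3 lie wholly inside the annotated spans of their genes. Those of Nmrk2 and Nadsyn1 and 1 of Nmnat1 overlap theirs in part. Over the 250 bases before the start, the CG count was 27 for Nampt, 23 for Nadsyn1, 23 and 24 for the windows of Nmnat1, and 21 for Nmrk1. It was 15 for Nmnat2, 9 for Nmnat3, 6 for Qprt and 5 for Nmrk2, against a median of 6 over 32851 windows. The members that were lower in Cre+ kidneys at 7 months thus included windows with many CG dinucleotides and Qprt, whose window was at the median. The sequence TATAAA (or TTTATA, the same on the other strand) stood in 12.4% of all windows and in 1 of the members, Nmrk2, where it began 46 bases before the start. CACGTG was in 6.02% of all windows and CATGTG or its reverse CACATG in 12.3%. These 6-letter sequences, of the kind that basic helix-loop-helix factors such as TFE3 bind, were in 0 of the members' windows, which says only that these letters are not in this stretch.

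At 7 months the measured enzymes that passed the test were mostly lower in Cre+ than in Cre- kidneys. Nmrk2 rose, Nmrk1, Nampt, Nmnat1, Qprt and Nadsyn1 fell, and Nmnat2 and Nmnat3 did not pass the test. In counts, 1 of 8 members rose and 5 fell with an adjusted p under 0.05 in limma, where 11.7% of all genes rose and 10.8% fell. A rise in 1 of 8 is near the share of all genes, so it describes Nmrk2 alone and not the set. The median change of the members was -0.46, beside -0.04 over all genes. At 4 months 1 member, Nmrk1, fell and 0 rose, where 2.73% of all genes rose and 0.803% fell. At an unadjusted p under 0.05 in limma 0 rose and 2 fell, and with a plain linear model 0 rose and 1 fell. The median at 4 months was -0.16, beside 0.05 over all genes.

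**Figure D1:**
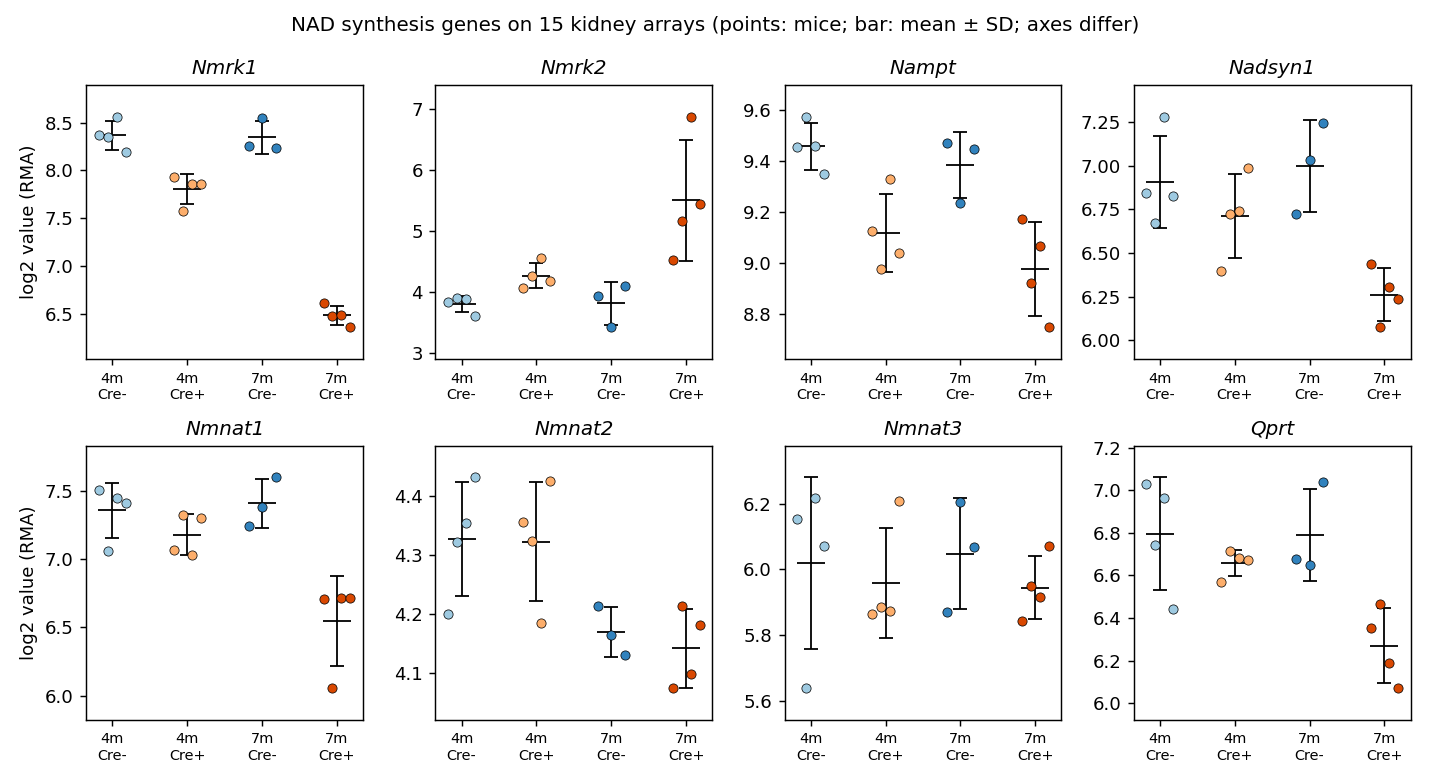
Each panel shows 1 gene, with the log2 RMA value on its own vertical axis, a point for each of the 15 mice and a bar with whiskers for the mean ± SD of each group. The 7-month Cre+ values of Nmrk1 (6.36 to 6.61) lie below, and those of Nmrk2 (4.53 to 6.87) above, all 7-month Cre- values, while Nmnat2 and Nmnat3 overlap between the genotypes.

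Nmrk1, a nicotinamide riboside kinase found in most tissues, fell at both ages. Its log2 values were 8.37, 8.35, 8.56 and 8.19 in 4-month Cre- kidneys and 7.93, 7.58, 7.86 and 7.85 in 4-month Cre+ kidneys. At 7 months they were 8.26, 8.54 and 8.24 in Cre- and 6.61, 6.48, 6.49 and 6.36 in Cre+ kidneys. All Cre+ values lay below all Cre- values at either age, and the 7-month Cre+ kidneys were lowest, with no overlap with any other group. Nmrk1 fell 1.48-fold at 4 months (-0.56, SE 0.11, adjusted p = 0.0073) and 3.64-fold at 7 months (-1.86, SE 0.12, adjusted p = 1.5e-08). The drop was larger at 7 months by 1.30 on the log2 scale (-1.30, SE 0.16, adjusted p = 0.0013). Leaving out each array in turn gave changes of -1.92 to -1.76 at 7 months and of -0.62 to -0.49 at 4 months.

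Nmrk2, the muscle-type riboside kinase, went the other way. Its log2 values were 3.84, 3.90, 3.89 and 3.61 in 4-month Cre- kidneys and 4.07, 4.26, 4.55 and 4.18 in 4-month Cre+ kidneys. At 7 months they were 3.93, 3.42 and 4.10 in Cre- and 4.53, 5.17, 6.87 and 5.44 in Cre+ kidneys. Cre+ values lay above Cre- values at both ages, and the 7-month Cre+ kidneys spread widely, with replicate 3 far above the other 3. Nmrk2 exceeded the median of all named values (4.999) in 3 of the 7-month Cre+ arrays and in 0 arrays of the other groups, so its rise starts from low values. Nmrk2 rose 3.22-fold at 7 months (1.69, SE 0.35, adjusted p = 0.0018). Its 4-month difference, 0.46 (SE 0.33, 95% interval -0.23 to 1.14), did not pass the test (adjusted p = 0.53) although the groups did not overlap. That SE comes from a spread shared by all groups. The SD of Nmrk2 was 0.14 in 4-month Cre-, 0.20 in 4-month Cre+ and 0.99 in 7-month Cre+ kidneys. The interval is thus wider than the 4-month values alone would give. The difference was not called under any alternative run either, the fit of the 4-month groups only included. The change at 7 months exceeded that at 4 months by 1.23 (SE 0.48), which did not pass either (adjusted p = 0.21).

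Without 7-month Cre+ replicate 3 the 7-month change of Nmrk2 was 1.23 (SE 0.21, adjusted p = 0.00054). The 7-month Cre+ replicates 1 and 2 had high levels of Y-linked genes and replicates 3 and 4 low levels. In 7-month Cre- kidneys replicate 1 was low and replicates 2 and 3 high. Xist was 3.35 to 3.93 in the 8 arrays of high level and 10.1 to 10.3 in the 7 of low level, as in male and female mice. Comparisons that use 7-month Cre- kidneys are thus not balanced for sex. With the Y-linked mean as a covariate the 7-month change of Nmrk2 was 1.61 (SE 0.32, adjusted p = 0.00099).

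**Figure D2:**
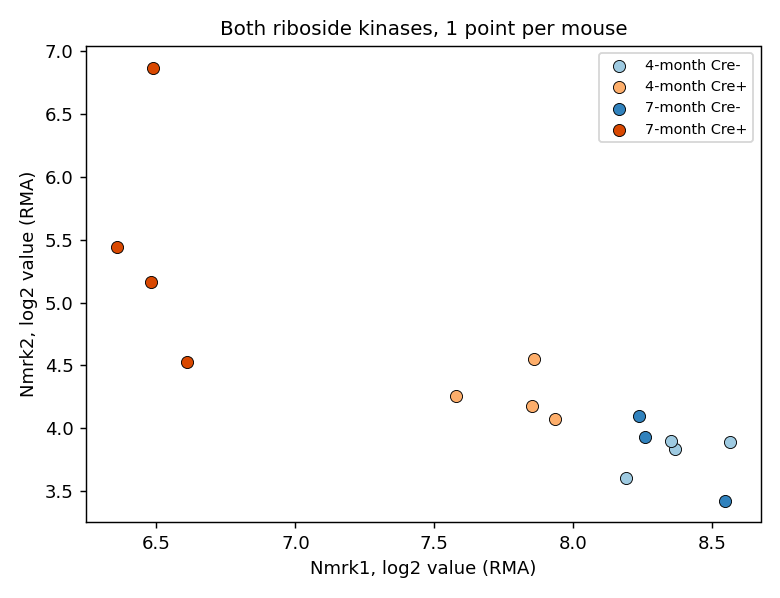
Log2 RMA values of Nmrk1 (horizontal axis) and Nmrk2 (vertical axis), with 1 point for each of the 15 mice, coloured by group. The 7-month Cre+ mice stand apart at low Nmrk1 (6.36 to 6.61) and high Nmrk2 (4.53 to 6.87), and on the Nmrk1 axis the 4-month Cre+ mice (7.58 to 7.93) lie between them and the Cre- mice.

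In the plot of both kinases the Cre- groups overlapped while each Cre+ group lay apart from them on Nmrk1, so no correlation over all arrays is given. After the group means were subtracted, r between Nmrk1 and Nmrk2 was -0.21 over the 15 arrays, as a description. Within the 7-month Cre+ group the mouse with the highest Nmrk2 value (6.87) had an Nmrk1 value of 6.49, in the middle of its group.

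Nampt, which makes nicotinamide mononucleotide from nicotinamide and is the main entry of the salvage route, was lower by a smaller amount. Its log2 values were 9.45, 9.57, 9.46 and 9.35 in 4-month Cre- and 9.13, 8.97, 9.33 and 9.04 in 4-month Cre+ kidneys, and 9.47, 9.23 and 9.44 in 7-month Cre- and 9.17, 8.92, 9.06 and 8.75 in 7-month Cre+ kidneys. The genotypes did not overlap at either age, with narrow gaps. Nampt fell 1.33-fold at 7 months (-0.41, SE 0.12, adjusted p = 0.021), and at 4 months it was at -0.34 (SE 0.11, adjusted p = 0.11), where the unadjusted p was 0.0070. The 7-month call was lost without Cre- replicate 1 (-0.36, adjusted p = 0.078), without Cre- replicate 3 (-0.38, adjusted p = 0.064), without Cre+ replicate 4 (-0.33, adjusted p = 0.071), under quantile normalization (-0.28, adjusted p = 0.098) and in a fit of the 7-month groups only (adjusted p = 0.052). At 4 months the call appeared when arrays were centred on their medians (-0.43, adjusted p = 0.030).

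Of the enzymes that join a mononucleotide to ATP, Nmnat1, the nuclear form, fell at 7 months. Its log2 values were 7.51, 7.06, 7.45 and 7.41 in 4-month Cre- and 7.07, 7.32, 7.03 and 7.30 in 4-month Cre+ kidneys, which overlapped (-0.18, SE 0.15, adjusted p = 0.63). At 7 months they were 7.24, 7.38 and 7.60 in Cre- and 6.71, 6.05, 6.71 and 6.72 in Cre+ kidneys, all 4 below every value of the other groups and replicate 2 lowest. Nmnat1 fell 1.81-fold at 7 months (-0.86, SE 0.16, adjusted p = 0.00084). The difference between the ages was -0.68 (adjusted p = 0.13) and did not pass.

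The other two forms gave no call in either Cre comparison. Nmnat2, known mainly from axons, ranged from 4.07 to 4.43 over all 15 arrays, and it was the 1 measured member that did not exceed the median of all named values (4.999) in at least 3 arrays. Nmrk2 did so only in 3 of the 7-month Cre+ arrays. The Cre difference of Nmnat2 was -0.00449 at 4 months (SE 0.09, 95% interval -0.19 to 0.18, adjusted p = 0.99) and -0.03 at 7 months (SE 0.09, 95% interval -0.23 to 0.17, adjusted p = 0.88). Nmnat3, described as the mitochondrial form, ranged from 5.64 to 6.22, with differences of -0.06 at 4 months (SE 0.13, 95% interval -0.33 to 0.21, adjusted p = 0.87) and -0.10 at 7 months (SE 0.14, 95% interval -0.40 to 0.19, adjusted p = 0.67). For Nmnat2 and Nmnat3 the intervals end short of the estimated changes of Nmrk1, Nadsyn1, Nmnat1 and Qprt at 7 months. Yet the 7-month interval of Qprt (-0.82 to -0.22) overlaps both, and that of Nadsyn1 (-1.08 to -0.39) overlaps that of Nmnat3. Nmnat2 lay under 4.999 on every array, so its narrow interval does not show that it was spared.

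Qprt, which turns quinolinate into nicotinic acid mononucleotide at the end of the de novo route, also fell at 7 months. Its log2 values were 7.03, 6.75, 6.96 and 6.44 in 4-month Cre- and 6.57, 6.71, 6.68 and 6.67 in 4-month Cre+ kidneys, which overlapped (-0.14, SE 0.13, adjusted p = 0.68). At 7 months they were 6.68, 6.65 and 7.04 in Cre- and 6.35, 6.47, 6.19 and 6.07 in Cre+ kidneys, with no overlap. Qprt fell 1.43-fold (-0.52, SE 0.14, adjusted p = 0.014), and without 7-month Cre- replicate 3, the highest of its group, the call was lost (-0.39, adjusted p = 0.080).

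Nadsyn1, the glutamine-dependent NAD synthetase that completes the de novo and Preiss-Handler routes, was the other synthesis enzyme that fell at 7 months. Its log2 values were 6.84, 6.67, 7.28 and 6.83 in 4-month Cre- and 6.40, 6.72, 6.74 and 6.99 in 4-month Cre+ kidneys, which overlapped (-0.19, SE 0.15, adjusted p = 0.58). At 7 months they were 6.72, 7.03 and 7.24 in Cre- and 6.43, 6.07, 6.30 and 6.23 in Cre+ kidneys, with no overlap. Nadsyn1 fell 1.67-fold (-0.74, SE 0.16, adjusted p = 0.0030). After group means were subtracted, Nadsyn1 followed Nmnat1 with r = 0.63 and Nmnat3 with r = 0.61 over the 15 arrays, as descriptions of arrays that share their groups and normalization.

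**Figure D3:**
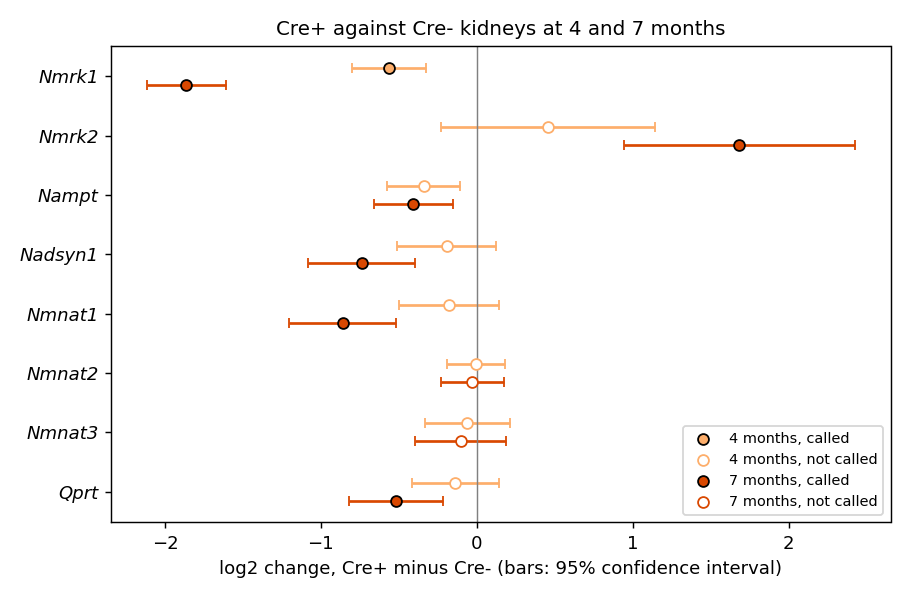
Log2 change of each measured member, Cre+ minus Cre- (horizontal axis), at 4 months (light) and 7 months (dark), with 95% confidence intervals as bars and filled points for an adjusted p under 0.05. At 7 months 5 members are filled to the left of 0 and Nmrk2 to the right at 1.69, and at 4 months only Nmrk1 is filled, at -0.56.

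The Cre effect differed between the ages for 1 of 8 members, Nmrk1, which was more negative at 7 months, and was more positive for 0. Over all genes 0.96% were more positive and 1.18% more negative in this test. At an unadjusted p under 0.05 in limma 1 member was more positive and 3 were more negative, and the plain linear model gave 0 and 1. Nadsyn1 was at -0.55 (adjusted p = 0.24) and Qprt at -0.38 (adjusted p = 0.35).

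In Cre- kidneys 0 of 8 members rose and 0 fell from 4 to 7 months in limma, also at an unadjusted p under 0.05 and with the plain linear model, and 0.00451% of all genes rose and 0% fell. In Cre+ kidneys 1 member rose and 2 fell, where 4.12% of all genes rose and 6.71% fell. Nmrk1 fell by 1.32 on the log2 scale (SE 0.11, adjusted p = 6.4e-06) and Nmnat1 by 0.63 (SE 0.15, adjusted p = 0.013), both without overlap between the ages. Nmrk2 rose by 1.24 (SE 0.33, adjusted p = 0.023), with 7-month Cre+ replicate 1 (4.53) just under 4-month Cre+ replicate 3 (4.55). That rise was 0.78 without 7-month Cre+ replicate 3, and it lost the call without 4-month Cre+ replicate 1 (1.17, adjusted p = 0.054) and without 4-month Cre+ replicate 4 (1.21, adjusted p = 0.052). Nadsyn1 was at -0.45 (adjusted p = 0.067) and Qprt at -0.39 (adjusted p = 0.071). With the replicate number as a block in the 8 Cre+ arrays, a setting added after the data were seen, Qprt passed (adjusted p = 0.049) and 4 members were called. No label pairs these mice, and the same-numbered ones matched in Y-linked level, so the block cannot be read as a pairing of mice. The Cre+ arrays of the age comparison are those of the Cre comparisons, so these values are not independent of them.

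Other steps of the pathway are given by list. Their counts stand beside 11.7% of all genes rising and 10.8% falling at 7 months, and 2.73% and 0.803% at 4 months. Of 11 genes on the de novo (kynurenine) list 6 fell and 0 rose at 7 months (median -1.11). At an unadjusted p under 0.05 in limma 0 rose and 7 fell, and in the plain linear model 0 and 5. The list also holds Acmsd and the transaminases Aadat, Kyat1 and Kyat3, which are not steps toward NAD. Haao, which makes the precursor of quinolinate, fell 3.97-fold from 8.41 ± 0.12 (SD, n = 3) to 6.42 ± 0.11 (SD, n = 4), a change of -1.99 (SE 0.18, adjusted p = 5.2e-07). Acmsd, which diverts that precursor away from NAD, fell by 1.86 on the log2 scale (SE 0.21, adjusted p = 7.3e-06). Afmid, the formamidase of the route, fell by 1.59 (SE 0.18), the hydroxylase Kmo by 1.17 (SE 0.14), the transaminase Kyat1 by 1.21 (SE 0.38) and Ido2, a tryptophan dioxygenase, by 1.11 (SE 0.26). The Cre- and Cre+ values of Kyat1 and Ido2 overlapped, and Kyat1 lost the call without 7-month Cre- replicate 2 (-0.92, adjusted p = 0.16) or 3, without Cre+ replicate 3 or 4, and in the plain linear model. The first enzymes Tdo2 and Ido1 were at 0.03 and -0.03 (adjusted p = 0.92 for each).

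At 4 months 1 de novo enzyme fell, Haao (-0.70, SE 0.16, adjusted p = 0.023), and 0 rose. At an unadjusted p under 0.05 in limma 0 rose and 2 fell, and in the plain linear model 0 rose and 0 fell. Haao lost this call there, in a fit of the 4-month groups only (adjusted p = 0.079) and without any of 4 arrays, with the highest p without Cre- replicate 1 (-0.59, adjusted p = 0.093). In the test of the age difference 0.96% of all genes were more positive and 1.18% more negative. The drop was larger at 7 than at 4 months for 4 of 11: Acmsd (-1.45, SE 0.29, adjusted p = 0.016), Haao (-1.29, SE 0.24, adjusted p = 0.010), Kmo (-1.07, SE 0.19, adjusted p = 0.0091) and Afmid (-1.005, SE 0.24, adjusted p = 0.041). Acmsd and Afmid lost this call in the plain linear model (adjusted p = 0.069 and 0.11), Afmid also without any of 10 arrays (-0.88 and adjusted p = 0.12 without 7-month Cre- replicate 2), and Haao and Kmo kept it under every alternative run.

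Preiss-Handler entry and precursor uptake had 3 of 6 genes lower and 0 higher at 7 months (median -0.67). Naprt, which makes nicotinic acid mononucleotide from nicotinic acid, fell by 0.85 on the log2 scale (SE 0.12, adjusted p = 7.1e-05). Slc22a13, a transporter of nicotinate and urate, fell by 1.14 (SE 0.30), and Slc25a51, the mitochondrial NAD carrier, by 0.60 (SE 0.11). Slc29a1, a nucleoside transporter that can carry nicotinamide riboside, rose at 4 months (0.46, SE 0.12, adjusted p = 0.037), where Slc25a51 fell (-0.37, SE 0.10, adjusted p = 0.049). Slc29a1 was at 0.24 at 7 months (adjusted p = 0.20). Both 4-month calls were lost without 1 array, any of 7 arrays for Slc29a1 (0.39 and adjusted p = 0.13 without Cre- replicate 1) and any of 13 for Slc25a51 (-0.32 and adjusted p = 0.17 without Cre- replicate 3). Both were also lost in a fit of the 4-month groups only. That of Slc29a1 was lost as well when its 2 entries were averaged, under median centring and in the plain linear model, and that of Slc25a51 under quantile normalization. At 7 months Slc22a13 lost the call without Cre- replicate 1 (-0.85, adjusted p = 0.064).

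Among 7 genes of precursor supply and nicotinamide clearance 3 rose and 1 fell at 7 months. Bst1, an ADP-ribosyl cyclase related to Cd38, rose by 1.04 (SE 0.32, adjusted p = 0.025), Nnmt, which methylates nicotinamide, by 0.67 (SE 0.20, adjusted p = 0.020) and Aox1, which oxidises methylated nicotinamide, by 0.63 (SE 0.16, adjusted p = 0.0064). Bst1 was at 0.78 without 7-month Cre- replicate 2 (adjusted p = 0.15) and Nnmt at 0.53 (adjusted p = 0.12). Both calls were lost there, that of Bst1 also without Cre- replicate 1 or Cre+ replicate 3 and that of Nnmt without Cre+ replicate 1 or 2. Both were lost in the plain linear model too, where 1 gene of this list rose and 1 fell. Nudt12, a hydrolase of NADH and NADPH, fell by 1.10 on the log2 scale (SE 0.21). Aox1 had risen at 4 months as well (0.71, SE 0.14, adjusted p = 0.0083). Of 3 genes of NADP and redox conversion 2 fell and 0 rose at 7 months, the mitochondrial NAD kinase Nadk2 by 0.90 (SE 0.14) and the transhydrogenase Nnt by 0.69 (SE 0.12).

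Genes that use NAD are given by family. Of 14 measured PARP genes and Sarm1, 6 rose and 0 fell at 7 months (median 0.38), with 9 rising and 1 falling at an unadjusted p under 0.05 in limma. Parp14 rose by 1.15 (SE 0.14, adjusted p = 1.6e-05), Parp9 by 0.77 (SE 0.18), Parp8 by 0.75 (SE 0.14), Parp12 by 0.73 (SE 0.14), Parp4 by 0.38 (SE 0.13) and Tnks by 0.37 (SE 0.10). Parp9, Parp12 and Parp14 are known as interferon-induced genes, and Parp1, the DNA damage sensor, was at 0.02 (SE 0.12, adjusted p = 0.94). Parp4 lost the call without any of 5 arrays, and was at 0.29 without Cre- replicate 2 (adjusted p = 0.19). At 4 months Parp14 rose by 0.53 (SE 0.13, adjusted p = 0.033), a call lost without any of 7 arrays (0.46 and adjusted p = 0.12 without Cre+ replicate 2). Of 7 sirtuins 1 fell and 0 rose at both ages: Sirt3, the main mitochondrial deacetylase, was at -0.42 at 4 months (SE 0.11, adjusted p = 0.039) and at -1.03 at 7 months (SE 0.12, adjusted p = 7.2e-06), and Sirt1 was at 0.06 at 7 months (adjusted p = 0.74). The 4-month call of Sirt3 was lost without any of 5 arrays (-0.36 and adjusted p = 0.15 without Cre- replicate 3).

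Of 6 regulators linked to NAD metabolism 4 fell and 1 rose at 7 months. Ppara, a nuclear receptor of fatty acid oxidation, fell by 1.19 on the log2 scale (SE 0.14, adjusted p = 7.7e-06), the coactivators Ppargc1b and Ppargc1a by 0.67 (SE 0.12) and 0.47 (SE 0.14), and the nuclear receptor Esrra by 0.60 (SE 0.11). Arntl, the clock factor that drives Nampt in other tissues, rose by 0.50 (SE 0.14, adjusted p = 0.013), and its partner Clock was at 0.03 (adjusted p = 0.87). Ppargc1a lost the call without 7-month Cre- replicate 1 (-0.34, adjusted p = 0.13), Cre+ replicate 2 or Cre+ replicate 4, and Arntl without Cre- replicate 1 (0.44, adjusted p = 0.060). At 4 months Ppara fell (-0.52, SE 0.13, adjusted p = 0.028), a call lost without any of 4 arrays (-0.46 and adjusted p = 0.10 without Cre+ replicate 2). Of the 7 pathway genes called at 4 months, 6 lost the call under some alternative setting or without 1 array, Aox1 being the exception. Of the 27 called at 7 months, 7 did so: Kyat1, Slc22a13, Bst1, Nnmt, Parp4, Ppargc1a and Arntl.

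**Figure D4:**
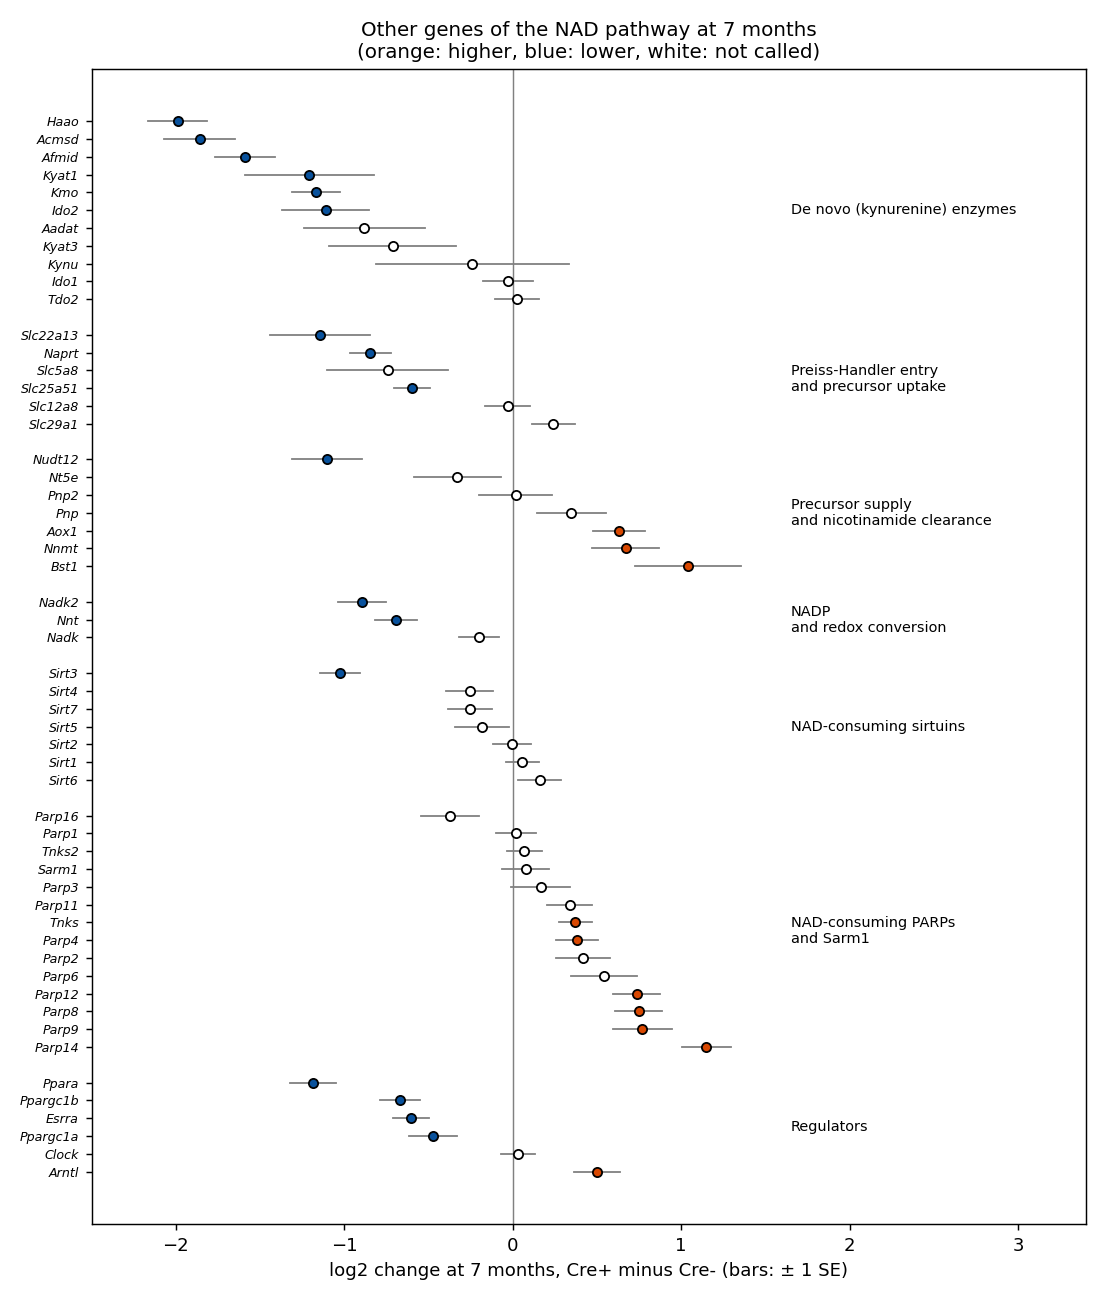
Log2 change at 7 months, Cre+ minus Cre- (horizontal axis), for the measured genes of each pathway list, with bars of ± 1 SE and colour for an adjusted p under 0.05. Genes of the de novo (kynurenine) list lie mostly at the left, down to -1.99 for Haao, and PARP genes mostly at the right, up to 1.15 for Parp14.

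Markers of cell types moved in the same arrays, where 11.7% of all genes rose and 10.8% fell at 7 months, and 2.73% and 0.803% at 4 months. All 16 proximal tubule markers fell at 7 months (median -1.23), with array means of 9.54 to 10.04 in Cre+ and 11.06 to 11.11 in Cre- kidneys, and 3 of 16 fell at 4 months (median -0.24). Of 15 distal nephron and collecting duct markers 8 fell and 1 rose at 7 months. All 13 measured macrophage and monocyte markers rose at 7 months (median 1.53), as did 7 of 9 B and plasma cell and 5 of 9 T and NK cell markers. At 4 months 3 of 13 macrophage and monocyte markers rose (median 0.56). In whole kidney, fewer cells of a type and less RNA per cell cannot be told apart, and the part of these markers in the changes of the NAD genes was not tested.

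Markers of muscle, the tissue Nmrk2 is known from, did not rise with it as a list. Of 15 striated muscle markers 0 rose and 2 fell at 7 months (Acta1 at -0.35 and Actn3 at -0.56), with 0 rising and 4 falling at an unadjusted p under 0.05 in limma, and 0 and 1 in the plain linear model. Their array means were 3.61 to 3.71 in 7-month Cre+ and 3.79 to 3.89 in 7-month Cre- kidneys. Of 8 cardiac markers 1 rose and 0 fell, Nppa, the atrial natriuretic peptide gene (1.55, SE 0.39, adjusted p = 0.0072). Over all genes 11.7% rose and 10.8% fell at 7 months, so counts this small do not set the muscle markers apart from other genes. The array means of the striated list also lie under the median of all named values (4.999), where changes are hard to see.

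The genes whose values followed Nmrk2 most closely over the 15 arrays, predicted genes left out, were Masp1 and Cxcr1 (Pearson r = 0.96 for each), Nppa, Trem2 and Pld3 (0.95 for each) and Adam33 (0.94). The genes most opposed to it were Keg1 (-0.95), Cltrn (-0.94) and Pter (-0.94). Cxcr1, a chemokine receptor, had group means of 4.37, 4.68, 4.31 and 5.92 in the order 4-month Cre-, 4-month Cre+, 7-month Cre- and 7-month Cre+. Trem2, a receptor of macrophages, had means of 4.48, 4.88, 4.56 and 5.67. In the same order Masp1 had 4.10, 4.26, 4.14 and 4.89, and Nppa 4.52, 5.17, 4.54 and 6.09. Pld3 had 7.93, 8.14, 7.92 and 8.64, and Adam33 4.55, 4.90, 4.65 and 5.97. These r values are descriptions over arrays that fall into 4 groups, and they rest on the difference of the groups as well as on the spread within them. The ranking was not repeated without 7-month Cre+ replicate 3, whose Nmrk2 value (6.87) lay far above the others.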

How the data were processed

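Kidney RNA of 15 mice was measured, each on an Affymetrix Mouse Gene 2.0 ST array of its own. The deposited values are log2 values, made by the authors with RMA in Partek 6.6 per the series design text and the submitters' processing notes. Their range, 1.04 to 13.12, gave the log2 scale. For the array design a genome build was not given in the sources used, and coordinates are RefSeq's. Array medians were 4.40 to 4.55. Depth does not apply to arrays, and their number limits the precision.

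Of 41345 entries, 23521 had 1 symbol, 1814 several and 16010 none. Symbols were updated through Entrez identifiers to RefSeq GRCm38.p6 for 23328 entries. Taking the entry of highest mean left 22180 genes, without a filter on dim genes. Groups came from the titles. A linear model of 4 group means over 15 arrays was fitted with limma 3.58.1 in R 4.3.3 (two-sided tests, Benjamini-Hochberg adjustment over all genes, threshold 0.05). The fit was also run on simulated arrays for the Cre comparisons at 4 and 7 months. Each simulated gene had the same spread in all groups, so that run does not cover genes of unequal spread such as Nmrk2. The study names an analysis of variance, for which the plain linear model without moderation stands as an alternative. Errors of changes are standard errors. Replicates are mice, by the design text. Same-numbered 4-month and 7-month Cre+ arrays deviated together from their group means (r of 0.17 to 0.30 in all 4 pairs, all matched in Y-linked level), so that comparison was also fitted in pairs. The labels give no source for this pairing. In other pairs of groups, same-numbered arrays also deviated together where their Y-linked levels matched, as replicate 1 of 4-month Cre- and 7-month Cre+ (r = 0.26). They deviated in opposite directions where the levels differed, as replicate 1 of 4-month Cre- and 7-month Cre- (r = -0.47). In the Cre+ arrays a pairing of mice and a shared Y-linked level cannot be told apart.

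The members and lists were chosen with earlier results of these data known. All members were described whatever their values. Genes of the pathway lists could be named freely, and the 6 genes most like and the 3 most unlike Nmrk2 were taken by Pearson r. Alternatives were a filter on dim genes, median centring, quantile normalization, the plain linear model, a robust variance with trend, array weights, a replicate block, a Y-linked covariate, averaging of a gene's entries, the groups of a comparison alone, and each array left out. Tables were handled with pandas 2.3.3 and figures drawn with matplotlib 3.10.9.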

Additional observations from a re-analysis of the deposited data

Results flagged for a closer look

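Among groups of 4 arrays, 2 member values lay apart from the rest of their group by Dixon's criterion, which chance meets in about 1 in 20 groups. The value of Nmnat1 in 7-month Cre+ replicate 2 was 6.05, with a gap to its neighbour of 0.989 of the group's range. The value of Nmnat3 in 4-month Cre+ replicate 4 was 6.21, with a gap of 0.939 of the range.

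The Cre effect differed between 7 and 4 months, in limma's test of that difference, for 1 of 8 members and 4 of 11 genes of the de novo list. Over all genes 0.96% were more positive and 1.18% more negative. The differences were -1.30 for Nmrk1, -1.005 for Afmid, -1.07 for Kmo, -1.29 for Haao and -1.45 for Acmsd, each more negative at 7 months.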

How the results depend on the processing

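The calls of Nmrk1 at both ages and of Nmrk2, Nmnat1 and Nadsyn1 at 7 months kept their direction and their side of the threshold under every alternative run, but Nmrk2 passes the filter on dim genes only through 3 of the 7-month Cre+ arrays, so that setting is no support for its rise. Median centring raised the members called at 4 months to 2. The rise of Nmrk2 with age in Cre+ kidneys, 1.24, was no longer called in the plain linear model or with only the groups of the comparison, and ranged from 0.78 to 1.56 with 1 array left out. Uncalled values near 0 changed sign: the age difference of the Cre effect became 0.0099 for Nampt and 0.089 for Nmnat2 under quantile normalization. In the age comparison of Cre- kidneys Qprt was at 0.011 under quantile normalization and 1.9e-05 under median centring, and with array weights Nmrk1 was at 0.040 and Nmrk2 at -0.15. In Cre+ kidneys Nmnat3 was at 0.0077 under median centring. The cause was not tested.

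With 1 array left out, sign changes gave these ranges. At 4 months they were -0.047 to 0.041 for Nmnat2 and -0.19 to 0.0046 for Nmnat3. For the age difference of the Cre effect they were -0.14 to 0.011 for Nampt, -0.069 to 0.019 for Nmnat2 and -0.13 to 0.085 for Nmnat3. With age in Cre- kidneys they were -0.12 to 0.044 for Nmrk1, -0.13 to 0.21 for Nmrk2, -0.028 to 0.23 for Nadsyn1, -0.047 to 0.13 for Nmnat1, -0.099 to 0.12 for Nmnat3 and -0.13 to 0.071 for Qprt. With age in Cre+ kidneys they were -0.056 to 0.070 for Nmnat3.

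No label pairs the mice by replicate number. Over all groups 11 of 21 same-numbered pairs correlated above 0.1 (range -0.47 to 0.30). These were the pairs of matched Y-linked level, in the age comparison of Cre+ kidneys and elsewhere. With the replicate block over all arrays Nmrk2 in the age comparison of Cre- kidneys was at -0.03 in place of 0.01, and Parp14 at 4 months (adjusted p = 0.051), Kyat1 and Bst1 at 7 months (0.074 and 0.060) and the age difference of Afmid (0.064) lost their calls. With the block in the Cre+ arrays alone, added after the data were seen, no member's call with age changed but that of Qprt.

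Over all genes, 606 rose and 178 fell at 4 months. Those falling numbered 268 with the filter, 287 under quantile normalization, 511 under median centring (497 rising) and 324 with the Y-linked covariate. At 7 months 2597 rose and 2394 fell, and 2337 and 3609 under median centring. For the age difference of the Cre effect 213 and 262 became 359 and 276 under quantile normalization, 321 and 273 under median centring, and 90 and 137 in the plain linear model, and those more negative numbered 433 with the covariate. With age in Cre+ kidneys 914 rose and 1488 fell, and 1325 and 1107 under quantile normalization. With age in Cre- kidneys 1 rose, and 0 in the plain linear model, with the block or with only the groups compared. With 1 array left out, 370 to 904 rose and 72 to 197 fell at 4 months, 108 to 228 were more positive and 117 to 288 more negative in the age difference, and 604 to 949 rose and 956 to 1523 fell with age in Cre+ kidneys.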
